A study of Danio rerio with 30 samples.

Results

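Embryos deficient for Tbx5a were compared here with embryos deficient for Tbx5b at 18 h post-fertilization (hpf), which sets the paralogues side by side without passing through wildtype. The comparison used 6 of the 30 samples of the series, 3 libraries for each deficiency. Of the 14648 gene loci in the deposited table, 10583 were kept: the status was OK in both groups, the value reached 1 FPKM (fragments mapped to the gene, scaled by transcript length and by the size of the library) in either group, and the locus spanned at least 300 bp. Of the loci left out, 4029 lay below 1 FPKM in both groups, among them the 3 that lacked an OK status, and 36 others spanned under 300 bp.

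All embryos were zebrafish of the *AB strain. Tbx5a-deficient embryos carried a morpholino against Tbx5a and Tbx5b-deficient embryos one against Tbx5b, in each case given at the single-cell stage, and the eyes were dissected away before RNA was extracted. The paper reports a larger dose per embryo for the Tbx5b than for the Tbx5a morpholino. Dose and target therefore cannot be told apart in this comparison. Each library pooled 10 embryos. Embryos given both morpholinos (double-deficient) and wildtype embryos of the same stage and dissection are quoted where they place a value. A morpholino lowers the protein by blocking translation or splicing of its target. The paper names the Tbx5b morpholino as translation blocking and does not state the type of the Tbx5a morpholino. For a translation blocker the level of the target's transcript does not test whether the injection worked. The tbx5a transcript is not read as such a test here either. The authors pooled the 3 libraries of a group into 1 FPKM value with a lower and an upper bound, so the spread between libraries cannot be recovered, no p-value was computed, and read depth per library is unknown. A gene was called where the absolute log2 ratio of FPKM + 1 reached 1 and the intervals between the bounds were apart.

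Tbx5 is a T-box transcription factor of the limb and heart fields, and zebrafish carry the paralogues tbx5a and tbx5b. In the pectoral fin field Tbx5a acts upstream of fgf24, a secreted Fgf ligand that guides the cells of the lateral plate mesoderm into the fin bud. Both paralogues are also needed for the heart to loop. At the stages sampled here the somites, notochord, blood and vessels make up much of the trunk, so a whole-embryo library reports on all of them. Fewer cells of a type and less RNA in each cell cannot be told apart in such libraries.

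The genes under study gave low values in both groups. Transcripts of tbx5a itself stood at 1.54 FPKM (bounds 0.488 to 2.59) in Tbx5a-deficient embryos and 0.982 FPKM (0.288 to 1.68) in Tbx5b-deficient embryos. The paralogue tbx5b was listed at 0.153 FPKM in Tbx5a-deficient embryos and 0.164 FPKM in Tbx5b-deficient embryos, with a lower bound of 0 in both. fgf24 had 1.03 FPKM in Tbx5a-deficient embryos and 1.12 FPKM in Tbx5b-deficient embryos. All 3 pairs of bounds overlapped. In the preliminary experiment, 1 library a group made from embryos with eyes, tbx5a had 1.01 FPKM (0.568 to 1.46) in Tbx5a-deficient embryos and 5.30 FPKM (3.18 to 7.42) in Tbx5b-deficient embryos at 18 hpf, and those bounds were apart. At 21 hpf in that experiment the order was turned round, again with bounds apart, at 16.1 FPKM (11.8 to 20.4) in Tbx5a-deficient embryos and 3.88 FPKM (2.67 to 5.09) in Tbx5b-deficient embryos.

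Between the deficiencies 2 genes were called, 0.0189% of the 10583 kept, and both were lower in Tbx5a-deficient embryos. The first was cmn (calymmin, a protein of the notochord sheath; chr12:13080318-13125946, in the files' coordinates). It had 18.4 FPKM (9.23 to 27.5) in Tbx5a-deficient embryos, against 62.4 FPKM (33.5 to 91.3) in Tbx5b-deficient embryos. Double-deficient embryos had 20.9 FPKM and wildtype embryos 22.7 FPKM, so Tbx5b-deficient embryos held the high value and the other groups lay close together. The log2 ratio was -1.71, or 3.40-fold higher in Tbx5b-deficient embryos without the pseudocount. At 21 hpf the order was the opposite, with 72.9 FPKM in Tbx5a-deficient embryos and 40.5 FPKM in Tbx5b-deficient embryos, and the bounds overlapped. In the preliminary experiment at 18 hpf cmn had 46.7 FPKM in Tbx5a-deficient and 44.9 FPKM in Tbx5b-deficient embryos.

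Other genes active in the notochord, picked after the value of cmn was seen, did not move as one. The T-box gene ta (Brachyury) had 20.2 FPKM in Tbx5a-deficient embryos and 29.0 FPKM in Tbx5b-deficient embryos, and the ligand gene shha had 8.04 FPKM in Tbx5a-deficient and 10.3 FPKM in Tbx5b-deficient embryos. The collagen gene col8a1a was level, at 43.3 FPKM in Tbx5a-deficient and 44.7 FPKM in Tbx5b-deficient embryos. The fibrillar collagen gene col2a1a lay the other way, at 73.5 FPKM in Tbx5a-deficient and 41.5 FPKM in Tbx5b-deficient embryos. Bounds overlapped for these 4 genes.

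The second call was mir10c, a microRNA gene whose listed locus (chr3:23567486-23617534) runs over 4 other listed loci, hoxb3a to hoxb6a, so reads from its neighbours cannot be told apart from its own. It was listed at 0 in Tbx5a-deficient embryos and at 8.75 FPKM (0.464 to 17.03) in Tbx5b-deficient embryos. Double-deficient embryos were also listed at 0, and wildtype embryos at 12.5 FPKM. At 21 hpf the entry was turned round, with 10.1 FPKM (2.55 to 17.6) in Tbx5a-deficient embryos and 0 in Tbx5b-deficient embryos. The files thus alternate between 0 and a value of around 10 FPKM for this locus, and no fold is given against a group listed at 0. Another microRNA locus, mir10b-2, which overlaps 9 listed genes, was at 0 in Tbx5a-deficient embryos and 11.2 FPKM (0 to 24.1) in Tbx5b-deficient embryos. mirlet7j had 45.3 FPKM in Tbx5a-deficient and 107 FPKM in Tbx5b-deficient embryos but was listed at 0 in double-deficient and wildtype embryos.

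The width of the bounds sets how small a difference this comparison can call. Among the 6005 kept genes of at least 10 FPKM, the upper bound lay a median of 44.2% above the value in Tbx5a-deficient embryos and 44.5% above it in Tbx5b-deficient embryos. At such widths bounds part at a median ratio of 2.59-fold, and for 99% of genes only beyond 2.43-fold. Without the requirement on bounds, 26 genes (0.246%) passed 2-fold, 12 of them higher (0.113%) and 14 lower (0.132%) in Tbx5a-deficient embryos. This split rests on the deposited scaling: with both groups scaled to the same FPKM total, 5 were higher and 58 lower. The deficiencies were otherwise close: the log2 ratios had a median of -0.02, an interquartile range of -0.21 to 0.19 and an SD of 0.31 across genes, and 94.5% of kept genes lay within 1.5-fold.

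**Figure D1:**
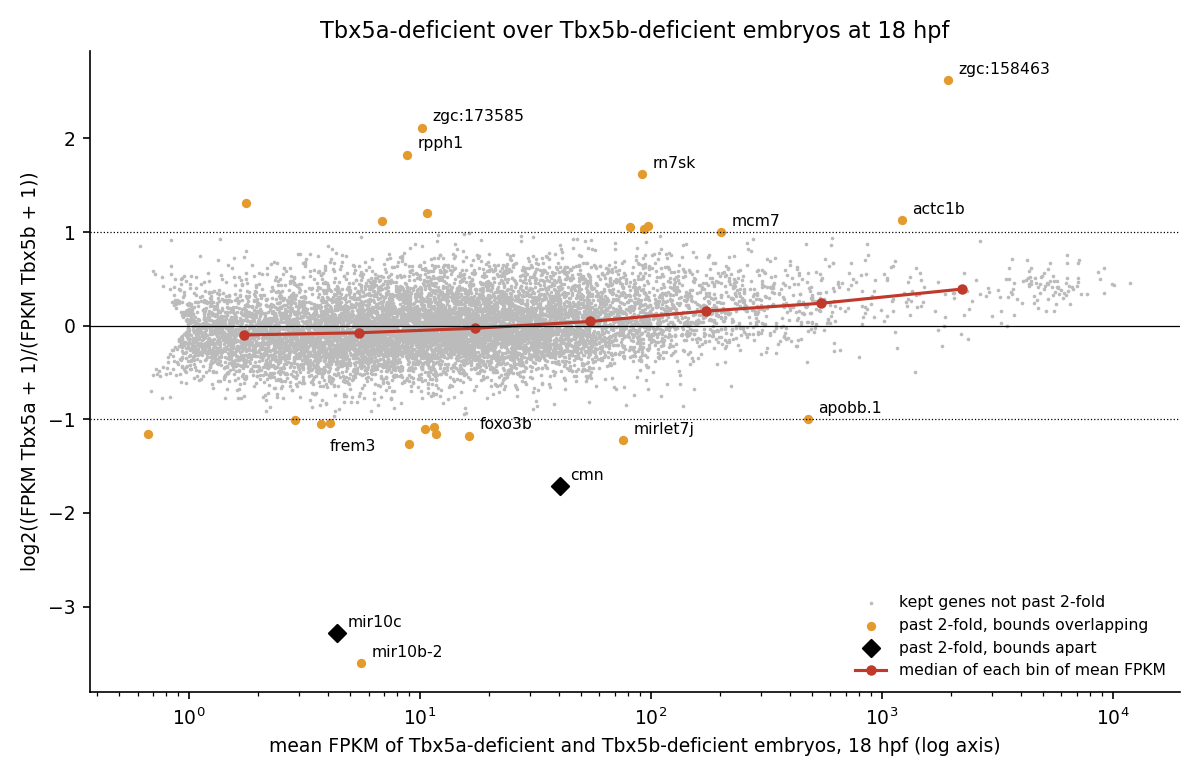
Log2 ratio of Tbx5a-deficient over Tbx5b-deficient embryos at 18 hpf (y axis, on FPKM + 1) against the mean FPKM of the groups (x axis, log scale) for the 10583 kept genes, with dotted lines at 2-fold and a red line through the median of each expression bin. Only cmn and mir10c, both lower in Tbx5a-deficient embryos, had bounds apart, and the medians climb with expression, at -0.10 in the lowest bin and 0.39 in the highest.

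Among genes of at least 10 FPKM with a lower bound above 0 in both groups, the 12 with the highest ratios included muscle genes. The sarcomeric actin gene actc1b had 1673 FPKM (733 to 2613) in Tbx5a-deficient embryos and 767 FPKM (390 to 1144) in Tbx5b-deficient embryos, a log2 ratio of 1.12. Near-identical actin genes may share its short reads, which makes the value uncertain. mybphb, which encodes a myosin binding protein of muscle, had 132 FPKM (76.4 to 188) in Tbx5a-deficient embryos and 62.7 FPKM (36.6 to 88.9) in Tbx5b-deficient embryos, a log2 ratio of 1.07. Bounds overlapped for both genes, and wildtype embryos lay in between, at 1224 FPKM for actc1b and 88.2 FPKM for mybphb.

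Regulators of the vasculature and of the mesoderm were also among the 12. hhex, a homeobox gene of endothelial and endodermal cells, had 21.0 FPKM (9.85 to 32.1) in Tbx5a-deficient embryos and 10.2 FPKM (3.91 to 16.4) in Tbx5b-deficient embryos. foxc1a, a forkhead gene of somites and vessels, had 22.0 FPKM in Tbx5a-deficient embryos and 10.5 FPKM in Tbx5b-deficient embryos. The replicative helicase gene mcm7 had 270 FPKM in Tbx5a-deficient embryos and 134 FPKM in Tbx5b-deficient embryos. The others were srsf10b (a splicing factor), mrpl20 (a mitochondrial ribosomal protein), eef1a1l2 (a translation elongation factor with close copies), mif (a cytokine) and the less described minal, zgc:77287 and zgc:92789. zgc:77287 had the highest ratio of the 12, with 15.4 FPKM (6.75 to 24.1) in Tbx5a-deficient and 6.13 FPKM (2.06 to 10.2) in Tbx5b-deficient embryos. All 12 had overlapping bounds. In each of them wildtype embryos lay between the deficiencies and double-deficient embryos lay nearer to Tbx5a-deficient embryos. The shares were 49.0% and 79.7% of all kept genes, and 49.5% and 84.9% of genes passing the same floor and bounds. Of the 12 genes with the lowest ratios, 10 had wildtype embryos in between and 12 had double-deficient embryos nearer to Tbx5a-deficient embryos. Genes picked for a large ratio leave more room for a value in between, so these counts are no test.

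The 12 with the lowest ratios held extracellular, cytoskeletal and stress genes besides cmn and mirlet7j. frem3, a gene for a basement membrane protein, had 4.86 FPKM (2.74 to 6.97) in Tbx5a-deficient embryos and 13.1 FPKM (6.22 to 19.98) in Tbx5b-deficient embryos, a log2 ratio of -1.27. The plectin gene pleca, whose product links cytoskeletal filaments, had 6.34 FPKM in Tbx5a-deficient embryos and 14.7 FPKM in Tbx5b-deficient embryos. xirp1, a gene for an actin-binding protein of striated muscle, had 7.07 FPKM (3.80 to 10.3) in Tbx5a-deficient embryos and 16.1 FPKM (9.21 to 22.9) in Tbx5b-deficient embryos. For xirp1 double-deficient embryos had 6.39 FPKM (3.51 to 9.28) and wildtype embryos 7.74 FPKM (4.29 to 11.2). Both values lay below the Tbx5b-deficient value, with bounds that overlapped its bounds. foxo3b, a forkhead gene of the stress response, had 9.66 FPKM in Tbx5a-deficient embryos and 23.1 FPKM in Tbx5b-deficient embryos. The yolk lipid carrier gene apobb.1 had 318 FPKM (98.3 to 537) in Tbx5a-deficient embryos and 637 FPKM (14.2 to 1259) in Tbx5b-deficient embryos, with very wide bounds. casp8 (an initiator caspase), aspm (a spindle protein), bnip4, si:dkey-204l11.1 and zgc:123035 completed the group at log2 ratios of -0.88 to -1.16. Bounds overlapped for 11 of the 12, all but cmn.

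**Figure D2:**
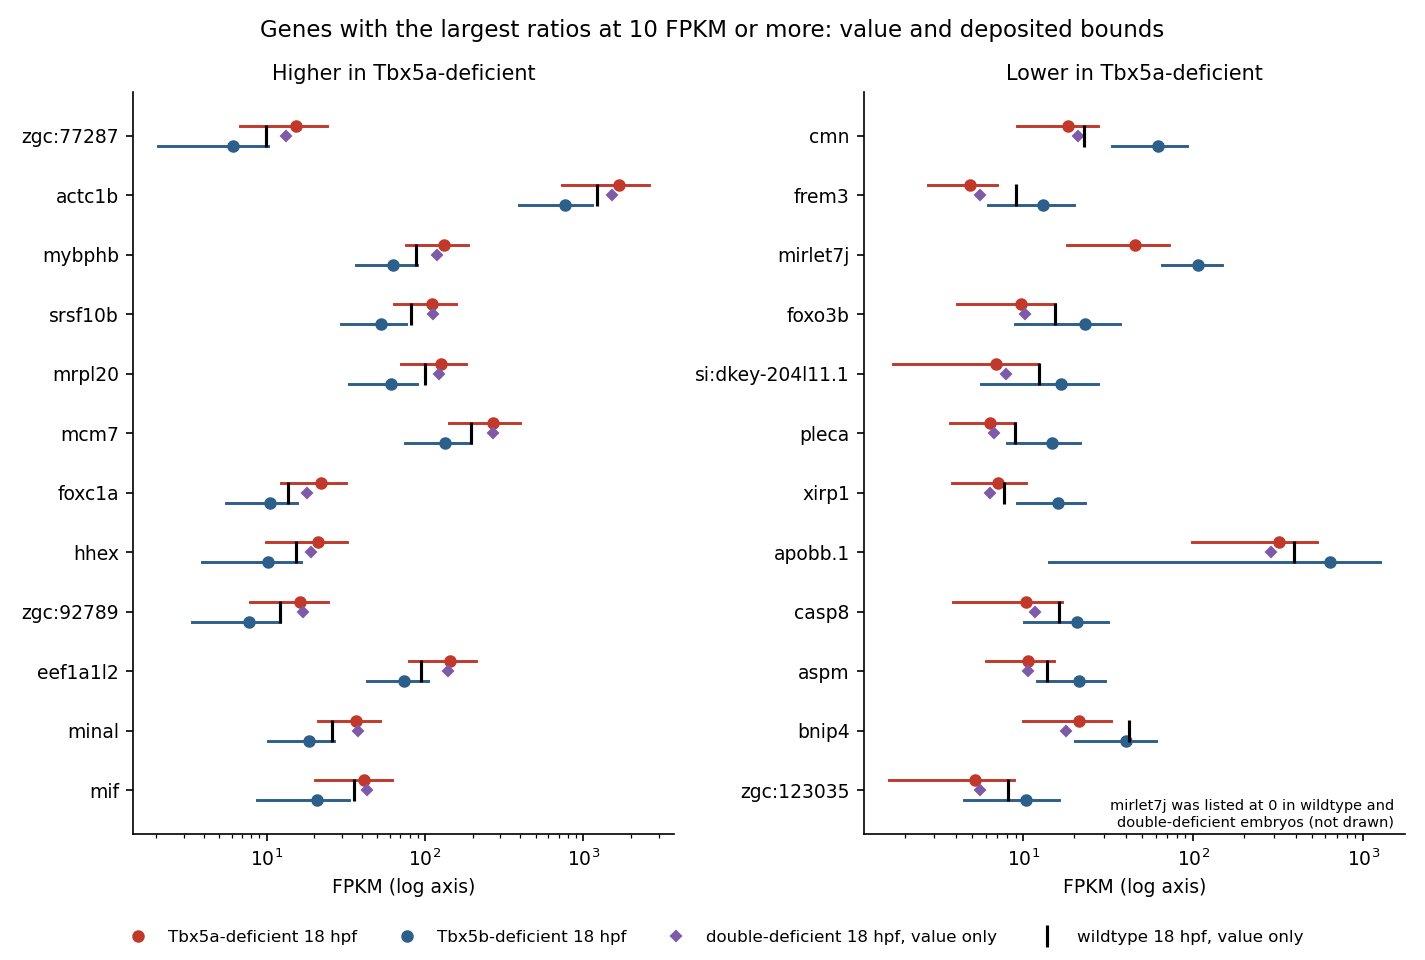
FPKM (x axis, log scale) of the 12 genes with the highest ratio (left) and the 12 with the lowest (right) among genes of at least 10 FPKM, with points and lines for the value and deposited bounds of Tbx5a-deficient (red) and Tbx5b-deficient (blue) embryos at 18 hpf, and double-deficient (diamonds) and wildtype values (ticks) without their bounds. Bounds overlap for each gene except cmn, at 18.4 FPKM in Tbx5a-deficient and 62.4 FPKM in Tbx5b-deficient embryos. The wildtype value lies between the deficiencies for all 12 genes on the left and 10 of the 12 on the right.

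Loci of small or structural RNAs were among the genes past 2-fold. The largest ratio above 0 belonged to zgc:158463, annotated as a ribosomal RNA gene in RefSeq, with 3344 FPKM (0 to 7611) in Tbx5a-deficient embryos and 541 FPKM (255 to 827) in Tbx5b-deficient embryos. rn7sk, the small nuclear 7SK RNA, had 139 FPKM (0 to 577) in Tbx5a-deficient and 44.5 FPKM (0 to 286) in Tbx5b-deficient embryos, at a locus over 16 other listed genes. rpph1, the RNA of RNase P, had 14.3 FPKM in Tbx5a-deficient and 3.31 FPKM in Tbx5b-deficient embryos. These RNAs are made without a poly(A) tail, whereas the libraries were primed with oligo dT. At 21 hpf the deficiencies were level for zgc:158463 (604 FPKM in Tbx5a-deficient, 610 FPKM in Tbx5b-deficient embryos) and for rpph1 (3.91 FPKM in Tbx5a-deficient, 3.97 FPKM in Tbx5b-deficient embryos). Wildtype embryos of that stage had higher values, at 3093 FPKM (0 to 7115) for zgc:158463, 512 FPKM (0 to 1939) for rn7sk and 58.9 FPKM (11.8 to 106) for rpph1. These wildtype bounds overlapped those of both deficiencies for zgc:158463 and rn7sk, and were apart from them for rpph1. In the preliminary experiment at 21 hpf rpph1 had 3.51 FPKM (1.32 to 5.70) in Tbx5a-deficient and 45.9 FPKM (29.9 to 61.8) in Tbx5b-deficient embryos, with bounds apart. rn7sk had 39.1 FPKM in Tbx5a-deficient and 283 FPKM in Tbx5b-deficient embryos there, and its bounds overlapped, as did those of zgc:158463. The ratio next in size was that of zgc:173585, with 17.3 FPKM (5.77 to 28.9) in Tbx5a-deficient and 3.22 FPKM (0 to 6.58) in Tbx5b-deficient embryos. zgc:173585 kept its direction at 21 hpf, at 32.3 FPKM (13.1 to 51.4) in Tbx5a-deficient and 8.16 FPKM (1.49 to 14.8) in Tbx5b-deficient embryos, with bounds that overlapped, and in the preliminary experiment at 21 hpf it had 0.884 FPKM in Tbx5a-deficient and 3.64 FPKM in Tbx5b-deficient embryos, with bounds apart.

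The deficiencies differed in how genes at the ends of chromosomes were represented. For the 479 kept genes within 0.5 Mb of the first or last base listed on a chromosome, the median log2 ratio was 0.39 and 86.6% were higher in Tbx5a-deficient embryos, beside 47% of all kept genes. The median was 0.19 at 0.5 to 1 Mb, 0.12 at 1 to 2 Mb, 0.05 at 2 to 5 Mb, -0.01 at 5 to 10 Mb and -0.07 for the 6627 genes beyond 10 Mb. The gradient ran through the genome. Of 50 chromosome ends with at least 3 kept genes in the outer 1 Mb, 49 had a median above 0, and the 50 medians ran from -0.05 to 0.61. Among genes of 10 to 100 FPKM alone the median was 0.47 within 0.5 Mb of an end and -0.06 beyond 10 Mb. Of the 12 genes with the highest ratios, 7 lay within 1 Mb and 10 within 2 Mb of an end, beside 7.09% and 10.6% of all kept genes, and 0 of the 12 lowest lay within 2 Mb. tbx5a itself lies 0.10 Mb from an end.

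The same measure at 21 hpf ran the opposite way, with a median of -0.25 within 0.5 Mb and 0.03 beyond 10 Mb. In the preliminary experiment it was -0.10 within 0.5 Mb and 0.03 beyond 10 Mb at 18 hpf, and -0.02 and 0.00023 at 21 hpf. Set against the mean of the 8 groups of the triplicate experiment, and relative to all genes, the 771 genes within 1 Mb of an end had a median log2 level of 0.16 in Tbx5a-deficient, -0.17 in Tbx5b-deficient, 0.22 in double-deficient and -0.02 in wildtype embryos at 18 hpf. The gap at 18 hpf thus came from both sides, with Tbx5a-deficient embryos above wildtype and Tbx5b-deficient embryos below it.

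**Figure D3:**
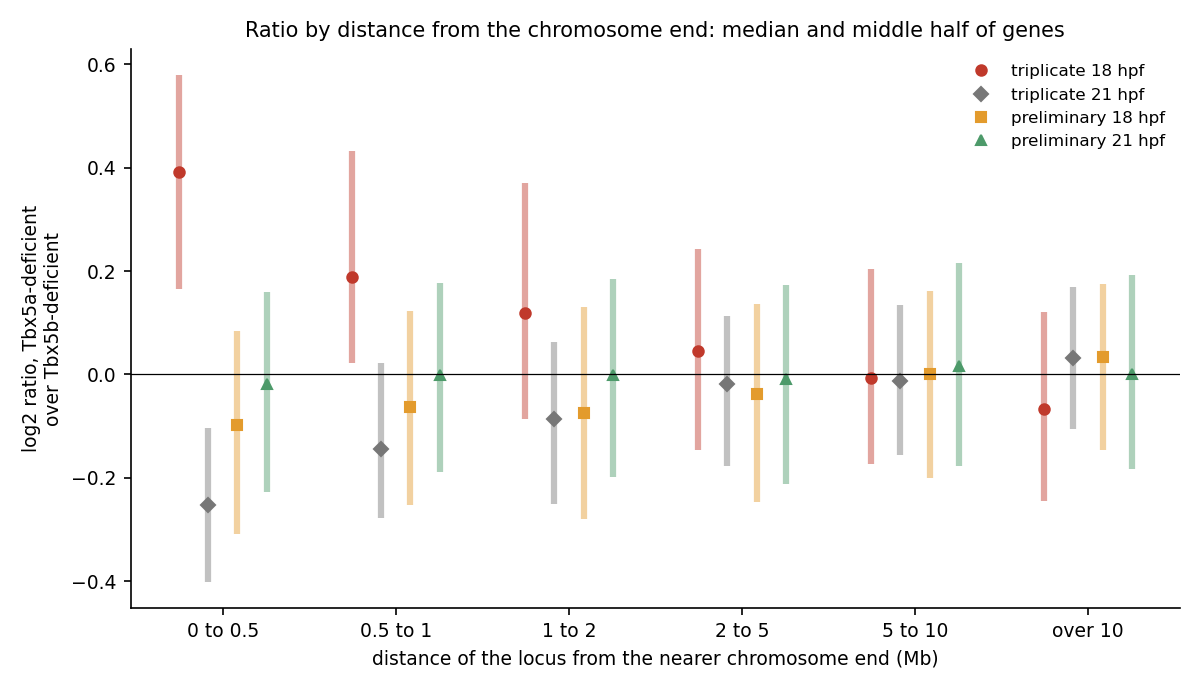
Log2 ratio of Tbx5a-deficient over Tbx5b-deficient embryos (y axis) by distance of the locus from the nearer chromosome end (x axis, Mb), with points for the median and lines for the interquartile range in the triplicate and preliminary experiments at 18 and 21 hpf. In the triplicate experiment at 18 hpf the median was 0.39 within 0.5 Mb and -0.07 beyond 10 Mb, and at 21 hpf it was -0.25 and 0.03.

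The ratio also followed the level of expression and the size of the locus. The median log2 ratio was -0.10 for genes under 3 FPKM, -0.08 at 3 to 10 FPKM, -0.03 at 10 to 30 FPKM, 0.05 at 30 to 100 FPKM, 0.16 at 100 to 300 FPKM, 0.24 at 300 to 1000 FPKM and 0.39 for the 146 genes of 1000 FPKM or more. By locus it was 0.25 for 300 to 1000 bp and -0.07 for 30000 to 100000 bp. Among genes of 10 to 100 FPKM alone it was 0.26 for 300 to 1000 bp and -0.0068 for 30000 to 100000 bp. With only genes over 2 Mb from a chromosome end, the list medians relative to all genes were 0.47 for ribosomal proteins (0.44 with all kept genes), 0.43 for oxidative phosphorylation (0.44) and -0.14 for Hox genes (-0.16). Glycolytic enzymes stood at 0.016 (0.12) and pronephros genes at 0.20 (0.09). Level was compared for 2 lists, below, and its part in the others was not tested. Counts of genes higher or lower are given on the deposited scale, where 47% of kept genes were higher. Scaling to the same FPKM total lowered the median of all kept genes to -0.28, against -0.02 as deposited, and of the 28 lists among 38 with a median above 0 only ribosomal proteins (0.12) and oxidative phosphorylation (0.13) then kept one above 0, so a list is best read against the median of all genes.

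The highest medians of all lists belonged to ribosomal proteins and oxidative phosphorylation. Of the 81 cytosolic ribosomal protein genes, 80 were higher in Tbx5a-deficient embryos, with a median log2 ratio of 0.42, or 0.44 above the median of all kept genes. Their summed level was 474991 FPKM in Tbx5a-deficient embryos, against 350616 FPKM in Tbx5b-deficient embryos. rplp0, a protein of the ribosomal stalk, had 7944 FPKM in Tbx5a-deficient and 4709 FPKM in Tbx5b-deficient embryos, at 0.75 the highest ratio of the list. The most abundant, rps29 of the small subunit, had 13765 FPKM in Tbx5a-deficient and 10065 FPKM in Tbx5b-deficient embryos. The exception was rpl7l1, a paralogue of a large subunit gene, at 207 FPKM in Tbx5a-deficient and 231 FPKM in Tbx5b-deficient embryos. No ribosomal protein gene was called and no bounds were apart. The 68 genes of 1000 FPKM or more that were not on the list had a median of 0.30, and 60 of them were higher.

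Subunits of oxidative phosphorylation gave a like picture, with 78 of 80 higher and a median log2 ratio of 0.42. The ATP synthase genes headed the list: atp5d had 338 FPKM (192 to 484) in Tbx5a-deficient and 183 FPKM (105 to 260) in Tbx5b-deficient embryos, and atp5b had 779 FPKM in Tbx5a-deficient and 429 FPKM in Tbx5b-deficient embryos. The 57 members of 100 to 1000 FPKM were all higher in Tbx5a-deficient embryos with a median of 0.44, while the other 769 genes in that range had a median of 0.16. Only ndufa4 and cox6b1 were lower, and cox6b1 was read from a locus of over 1 Mb that overlaps other genes. Neither was called in the triplicate experiment, where cox6b1 had lower bounds of 0 in both groups. In the preliminary experiment at 18 hpf both met the call rule with the opposite sign. Its bounds rest on 1 library a group, so they hold no spread between libraries. ndufa4 had 17.5 FPKM (11.8 to 23.2) in Tbx5a-deficient and 6.30 FPKM (3.98 to 8.62) in Tbx5b-deficient embryos there, and cox6b1 had 27.6 FPKM (18.4 to 36.8) in Tbx5a-deficient and 5.59 FPKM (3.24 to 7.93) in Tbx5b-deficient embryos. Mitochondrial ribosomal proteins (55 of 68 higher, median 0.22), splicing factors (53 of 68, 0.20), the proteasome (36 of 45, 0.18) and DNA replication and mitosis genes (56 of 79, 0.09) leaned the same way.

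All 6 of these lists had medians below 0 at 21 hpf, where 50% of all genes were higher in Tbx5a-deficient embryos. There 1 of 81 ribosomal protein genes and 5 of 81 oxidative phosphorylation genes were higher in Tbx5a-deficient embryos, with medians of -0.23 and -0.22. Of all genes of 1000 FPKM or more at 21 hpf, 10 of 144 were higher, with a median of -0.20. The shares higher were 29.8% at 100 to 300 FPKM and 21.6% at 300 to 1000 FPKM. Against the mean of the 8 groups, ribosomal protein genes at 18 hpf had a median level of 0.08 in Tbx5a-deficient, -0.35 in Tbx5b-deficient, 0.32 in double-deficient and 0.11 in wildtype embryos. At 21 hpf the same genes stood at -0.32 in Tbx5a-deficient, -0.09 in Tbx5b-deficient, -0.15 in double-deficient and 0.41 in wildtype embryos. The single deficiency with the lowest level thus differed between the stages. In the preliminary experiment at 18 hpf, where 51.6% of all genes were higher in Tbx5a-deficient embryos, 62 of 63 ribosomal protein genes (median 0.25) and 50 of 60 oxidative phosphorylation genes (0.12) were higher, the same sign as in the triplicate experiment at that stage. The splicing factors (24 of 51 higher, median -0.0088) did not lean that way. Of all genes of 1000 FPKM or more in that experiment at 18 hpf, 136 of 145 were higher, with a median of 0.23. The ribosomal protein count thus lay near the share at that level. Shares higher were 71.8% at 100 to 300 FPKM and 79.8% at 300 to 1000 FPKM. In the preliminary experiment at 21 hpf, 117 of 134 genes of 1000 FPKM or more were higher, with a median of 0.21.

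**Figure D4:**
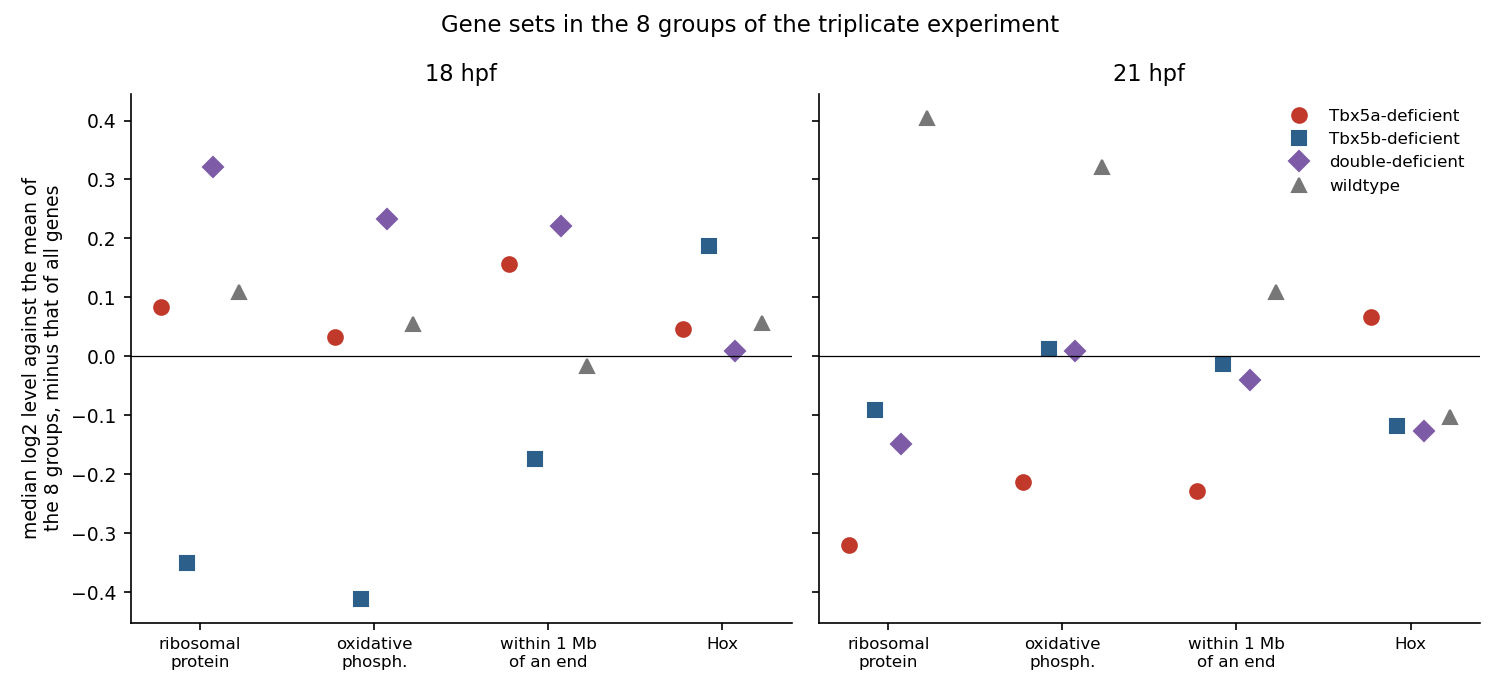
Median log2 level of 4 gene sets (x axis) in the 4 groups at 18 hpf (left) and 21 hpf (right), each gene taken against its mean over the 8 groups and each set against all genes (y axis, log2). At 18 hpf Tbx5b-deficient embryos have the lowest ribosomal protein value (-0.35) and the highest Hox value (0.19), and at 21 hpf Tbx5a-deficient embryos have the lowest ribosomal protein value (-0.32).

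Muscle genes lay on both sides. Of 22 myogenic regulators, 16 were higher in Tbx5a-deficient embryos (median log2 ratio 0.21). myog, which drives terminal differentiation, had 190 FPKM in Tbx5a-deficient and 143 FPKM in Tbx5b-deficient embryos, and myf5 had 45.3 FPKM in Tbx5a-deficient and 33.6 FPKM in Tbx5b-deficient embryos, while myod1 was at 57.2 FPKM in Tbx5a-deficient and 60.3 FPKM in Tbx5b-deficient embryos. Of 43 skeletal muscle contractile genes, 16 were higher and 27 lower (median -0.11). Besides actc1b and mybphb, the calcium pump gene atp2a1 had 194 FPKM in Tbx5a-deficient and 111 FPKM in Tbx5b-deficient embryos, and the creatine kinase gene ckma had 85.4 FPKM in Tbx5a-deficient and 56.5 FPKM in Tbx5b-deficient embryos. Among the lower members, obsl1a, an obscurin-like gene, had 3.96 FPKM (2.13 to 5.79) in Tbx5a-deficient and 8.33 FPKM (4.62 to 12.03) in Tbx5b-deficient embryos. The slow myosin gene smyhc1, which has near-identical neighbours, had 98.1 FPKM in Tbx5a-deficient and 179 FPKM in Tbx5b-deficient embryos. Of 13 cardiac contractile genes 6 were higher, among them actc1a, at 365 FPKM in Tbx5a-deficient and 192 FPKM in Tbx5b-deficient embryos, and the ventricular myosin gene vmhc was at 4.65 FPKM in Tbx5a-deficient and 7.26 FPKM in Tbx5b-deficient embryos. The caution given for actc1b, that actin genes may share short reads, applies to actc1a as well. No gene of these lists was called. At 18 hpf in the preliminary experiment, 5 of 22 myogenic regulators (median -0.17) and 9 of 11 cardiac genes (0.26) were higher in Tbx5a-deficient embryos, opposite in sign to the triplicate medians.

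Genes of the heart and fin fields differed little. Of 30 kept members, 18 were higher in Tbx5a-deficient embryos, with a median log2 ratio of 0.10 and a range of -0.39 to 0.51. The highest were gata6, a cardiac and endodermal GATA factor, with 29.8 FPKM in Tbx5a-deficient and 20.6 FPKM in Tbx5b-deficient embryos, and etv4, an Fgf target, with 50.2 FPKM in Tbx5a-deficient and 35.3 FPKM in Tbx5b-deficient embryos. The lowest was the T-box gene tbx2a, at 8.75 FPKM in Tbx5a-deficient and 11.8 FPKM in Tbx5b-deficient embryos. hand2, needed in both fields, had 15.33 FPKM in Tbx5a-deficient and 18.8 FPKM in Tbx5b-deficient embryos, and nkx2.5 had 3.45 FPKM in Tbx5a-deficient and 3.86 FPKM in Tbx5b-deficient embryos. None passed 2-fold. Fgf pathway genes (17 of 31 higher, median 0.04), Bmp genes (22 of 41, 0.05), retinoic acid genes (14 of 23, 0.08) and Hedgehog genes (13 of 28, -0.02) had medians within 0.11 of that of all kept genes. In the Fgf list the inhibitor gene spry1 was highest, with 9.55 FPKM in Tbx5a-deficient and 5.22 FPKM in Tbx5b-deficient embryos, at 0.76.

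Vessel and blood genes leaned higher in Tbx5a-deficient embryos at 18 hpf. Of 30 endothelial genes 20 were higher (median 0.15). Besides hhex these included tek, a receptor of endothelial cells, with 2.52 FPKM in Tbx5a-deficient and 1.02 FPKM in Tbx5b-deficient embryos, and the transcription factor gene sox7, with 9.07 FPKM in Tbx5a-deficient and 5.87 FPKM in Tbx5b-deficient embryos. sox7, not called here, met the call rule with the opposite sign in the preliminary experiment at 18 hpf, which had 1 library a group. It had 4.70 FPKM (3.099 to 6.30) in Tbx5a-deficient and 11.6 FPKM (8.0005 to 15.2) in Tbx5b-deficient embryos there. The junction gene cdh5 and the scavenger receptor gene stab2 were lower, at 1.60 and 1.70 FPKM in Tbx5a-deficient and 2.72 and 3.29 FPKM in Tbx5b-deficient embryos. Of 23 erythroid genes 17 were higher (median 0.19), led by the globin gene hbbe1.1, with 346 FPKM in Tbx5a-deficient and 199 FPKM in Tbx5b-deficient embryos, and by gata1a, the main erythroid transcription factor, with 9.20 FPKM in Tbx5a-deficient and 5.23 FPKM in Tbx5b-deficient embryos. The other 6 erythroid genes were lower, and log2 ratios of the list ran from -0.78 to 0.79. Of 25 neural crest genes 19 were higher (median 0.26), with msxe highest at 39.3 FPKM in Tbx5a-deficient and 24.2 FPKM in Tbx5b-deficient embryos, 0.2 Mb from a chromosome end. No gene of these 3 lists was called. In the preliminary experiment at 18 hpf, 9 of 23 neural crest (median -0.15), 16 of 28 endothelial (0.04) and 16 of 24 erythroid genes (0.13) were higher. At 21 hpf in the triplicate experiment, 11 of 26 neural crest (-0.02), 10 of 31 endothelial (-0.12) and 8 of 23 erythroid genes (-0.09) were higher. Eye genes were listed because the dissection could change them. In the triplicate experiment at 18 hpf they had 145 FPKM in sum in Tbx5a-deficient and 132 FPKM in Tbx5b-deficient embryos (15 of 21 higher). At 21 hpf 9 of 27 were higher, and in the preliminary experiment at 18 hpf, with eyes, 7 of 30. The paper reports both paralogues as expressed in the retina, and whether these values follow the dissection was not tested.

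Of 47 Hox genes, which pattern the body axis, 38 were lower in Tbx5a-deficient embryos, with a median log2 ratio of -0.18, beside 53% lower of all kept genes. hoxa9a had 17.3 FPKM (8.93 to 25.7) in Tbx5a-deficient and 27.3 FPKM (15.5 to 39.2) in Tbx5b-deficient embryos, and hoxb1b had 45.4 FPKM in Tbx5a-deficient and 62.1 FPKM in Tbx5b-deficient embryos. The hindbrain gene hoxb2a was highest, at 12.7 FPKM in Tbx5a-deficient and 8.87 FPKM in Tbx5b-deficient embryos. Of the 47 loci, 14 overlap another listed locus, so reads of neighbours may be shared. At 21 hpf 40 of 48 Hox genes were higher in Tbx5a-deficient embryos, with a median of 0.17. At 18 hpf in the preliminary experiment 30 of 43 were higher, with a median of 0.12, so the negative median ratio of the triplicate experiment was not seen at the same stage there. Median Hox levels in the triplicate experiment at 18 hpf were taken against the mean of the 8 groups, relative to all genes. They were 0.046 in Tbx5a-deficient, 0.19 in Tbx5b-deficient, 0.0089 in double-deficient and 0.056 in wildtype embryos. Tbx5b-deficient embryos thus held the high value, and Tbx5a-deficient embryos lay close to wildtype.

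The remaining lists of protein-coding genes had medians between -0.15 and 0.18. Circadian genes (9 of 29 higher, median -0.15) were led downward by the nuclear receptor gene rorca, at 1.91 FPKM in Tbx5a-deficient and 3.70 FPKM in Tbx5b-deficient embryos. Heat shock and chaperone genes (20 of 48, -0.07) included the cytosolic chaperonin gene cct2, at 707 FPKM in Tbx5a-deficient and 430 FPKM in Tbx5b-deficient embryos, while the mitochondrial chaperone gene hspa9 had 111 FPKM in Tbx5a-deficient and 156 FPKM in Tbx5b-deficient embryos. Keratins and epidermal genes (21 of 31, 0.10) held krt91 and, at the low end, the periplakin gene ppl, at 55.7 FPKM in Tbx5a-deficient and 101 FPKM in Tbx5b-deficient embryos. Neurogenesis genes (29 of 43, 0.17) were headed by insm1b, at 8.72 FPKM in Tbx5a-deficient and 5.37 FPKM in Tbx5b-deficient embryos. No gene of these lists was called.

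Translation factors (42 of 66 higher, median 0.14) were headed by eef1a1l2 and by the elongation factor gene eef2b, at 3477 FPKM in Tbx5a-deficient and 1862 FPKM in Tbx5b-deficient embryos. Aminoacyl-tRNA synthetases (13 of 18, 0.10) were headed by iars, at 59.2 FPKM in Tbx5a-deficient and 32.9 FPKM in Tbx5b-deficient embryos. The other counts of higher genes were 8 of 13 histone genes (0.18), 16 of 27 glycolytic enzymes (0.10), 15 of 25 yolk lipid carriers (0.10), 14 of 22 liver and endoderm genes (0.09), 11 of 20 pronephros genes (0.07), 7 of 12 T-box genes (0.04), 5 of 10 pigment cell genes (0.03), 14 of 27 lysosomal genes (0.02), 16 of 34 segmentation genes (-0.01), 8 of 19 collagen genes (-0.03) and 3 of 7 macrophage and neutrophil genes (-0.08). None of these lists held a called gene. Of 353 listed microRNA loci, 6 were kept, 2 of them higher and 1, mir10c, called, and no mitochondrially encoded gene was in the table.

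**Figure D5:**
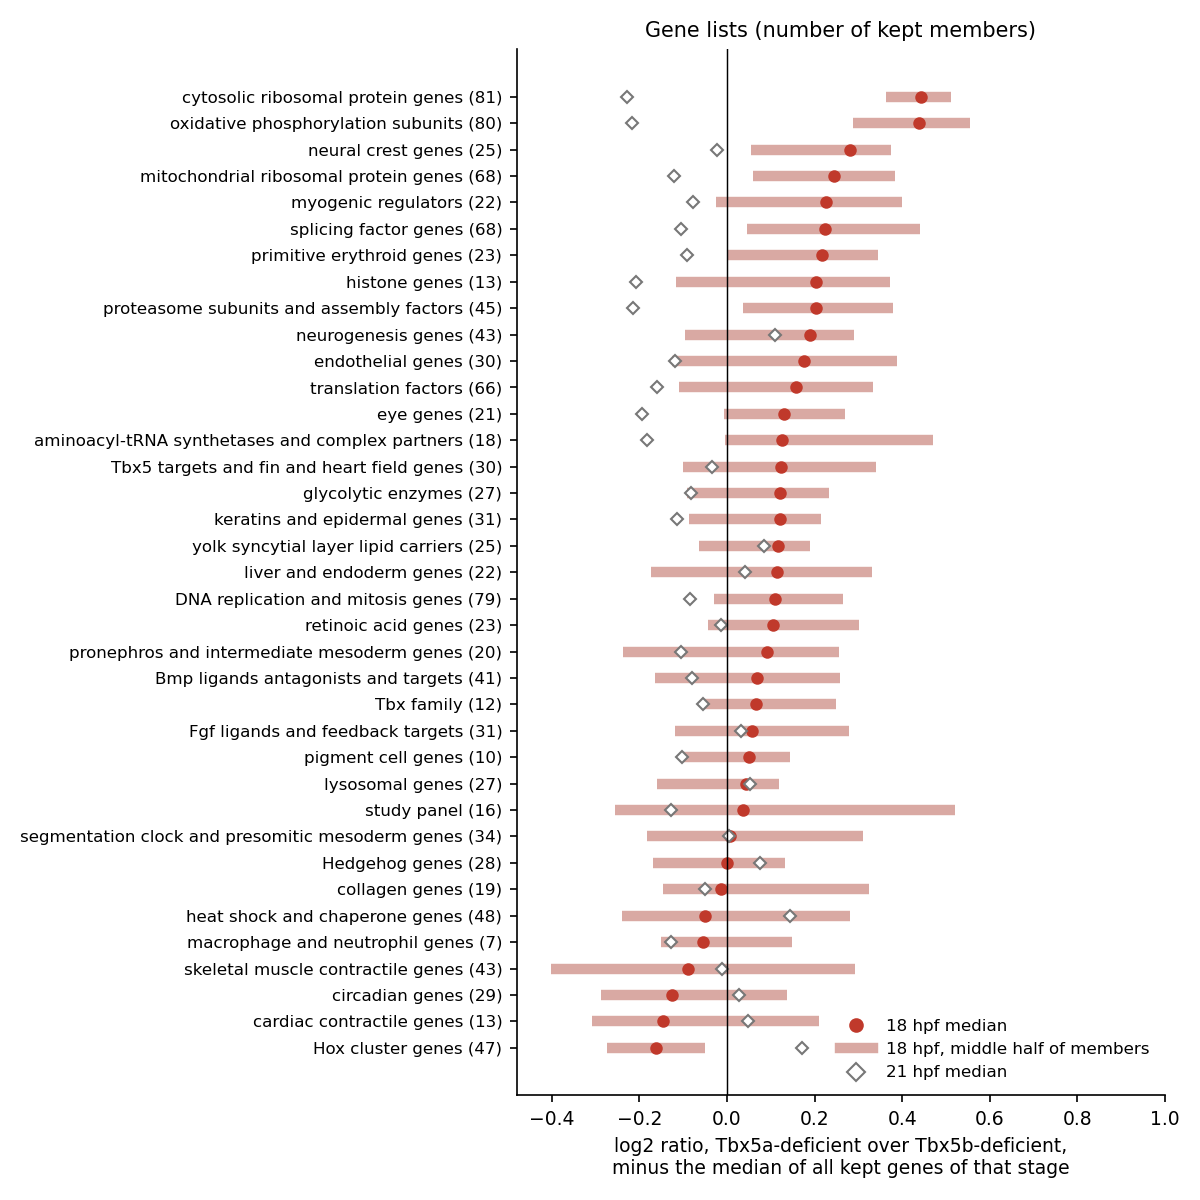
Median (points) and interquartile range (bars) of the log2 ratio of Tbx5a-deficient over Tbx5b-deficient embryos at 18 hpf in the gene lists shown, minus the median of all kept genes, with the 21 hpf median as open diamonds; the number of kept members is in brackets. Ribosomal protein genes lie highest at 0.44 and Hox genes at -0.16, and the ribosomal protein diamond lies at -0.23.

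The study drew candidate genes from these and related libraries, and kept a panel of 18 whose expression changes were detected by in situ hybridization. Since the candidates came from these and related libraries, the panel's values here are not independent evidence. Under their own names 17 were in the table and 16 were kept, 8 higher and 8 lower in Tbx5a-deficient embryos. mybphb and si:dkey-204l11.1 passed 2-fold without bounds. The keratin gene krt91 had 179 FPKM (97.0 to 260) in Tbx5a-deficient and 98.1 FPKM (44.9 to 151) in Tbx5b-deficient embryos. Aside from these, hhex, sox7 and obsl1a, the panel genes had log2 ratios of -0.40 to 0.48, and none was called. The panel genes sox7, ndufa4 and cox6b1 were called in the preliminary experiment at 18 hpf, each opposite to its sign here, with the values given above. That experiment had 1 library a group and called 0.513% of its genes, beside 0.0189% here.

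Across genes the 18 hpf ratios ran against those at 21 hpf. Over 10411 genes kept at both stages Pearson's r was -0.53 and Spearman's rho -0.56, and 28.4% of genes had the same sign. The stages share no library, but all genes of a group share its pooled libraries, so genes are not independent replicates and no p is given. At 21 hpf 4 of 10668 genes (0.0375%) were called. With the preliminary experiment at 18 hpf, r was -0.16 over 7797 genes and 44.0% had the same sign. There 80 of 15594 genes (0.513%) were called, and cmn, at the values given above, was not among them. With the preliminary experiment at 21 hpf, r was 0.11 and rho 0.13 over 10467 genes, and 54.6% had the same sign.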

How the data were processed

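RNA was sequenced as single-end 50 bp reads from oligo dT primed libraries. The authors aligned reads with TopHat 2.1.0 and summarised them with Cufflinks and Cuffdiff. The study's methods name genome Zv9, while the submitters' processing notes name GRCz10 (danRer10), Bowtie2 2.2.5.0 and bcl2fastq, and the listed coordinates carry unplaced contig names of the KN form. The deposited FPKM is 1 value per locus and group, with lower and upper bounds of the FPKM set by the authors and a status. The level of the bounds and the scaling between groups are not given in the sources used here. Columns of 3 values in the preliminary 18 hpf table matched no single label and were not used.

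Listed starts count from 0 and were raised by 1 (end minus listed start equals the RefSeq length for 1594 loci, against 302 for the alternative). Ratios were taken on log2(FPKM + 1) with Python 3.11.15, pandas 2.3.3 and numpy 2.4.6, and figures drawn with matplotlib 3.10.9. Of the table's symbols 12553 matched RefSeq genes (GRCz12tu), used for names only. Chromosome ends are the outermost listed bases. Named genes are the called genes, tbx5a, tbx5b and fgf24, the study's panel, the 12 highest and 12 lowest ratios at 10 FPKM or more with lower bounds above 0, and the extreme and most abundant members of 40 gene lists. Genes named outside this rule (mir10b-2, the notochord genes, zgc:158463, zgc:173585, rn7sk, rpph1, and list members such as atp5b, myod1, myog, myf5, ckma, vmhc, hand2, nkx2.5 and hoxb1b where they were not among the extremes) were chosen after their values were seen. Members and lists were chosen with earlier results of these data known, and the collagen and proteasome lists were narrowed to true members after values had been seen. The results of 1 gene list are not reported here. Alternatives changed the pseudocount, filters, bounds, locus length and scaling.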

Additional observations from a re-analysis of the deposited data

Results flagged for a closer look

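mir10c was the one locus called in opposite directions at the stages. At 18 hpf it was listed at 0 in Tbx5a-deficient embryos and at 8.75 FPKM in Tbx5b-deficient embryos, and at 21 hpf at 10.1 FPKM in Tbx5a-deficient embryos and 0 in Tbx5b-deficient embryos. The difference between the stages was not tested, since each group has 1 pooled value. The listed locus spans 50049 bp and overlaps 4 other listed genes.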

How the results depend on the processing

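cmn was called under all 12 alternatives. None of these could have removed it: its level, locus length and position lie well inside the filters. A smaller pseudocount enlarges its ratio, and leaving out the bounds or the ratio limit only loosens the rule. Scaling to the same FPKM total or the same upper quartile lowered the Tbx5a-deficient values, which widens the gap of cmn. Scaling by the median ratio moved the median of kept genes only from -0.02 to -6.0e-05. That is too little for the cmn bounds of 27.5 FPKM and 33.5 FPKM to meet. The 12 alternatives were therefore no check on this call. The 2 calls became 1 without a pseudocount, where loci listed at 0 drop out, and 1 with a floor of 10 FPKM. They became 26 without the bounds, 23 with loci of any length, 21 of which lay under 300 bp, and 6 after scaling to the same FPKM total. The FPKM totals were 1057138 for Tbx5a-deficient embryos against 859057 for Tbx5b-deficient embryos, and that scaling moved the median of all kept genes to -0.28, with 5 genes higher and 58 lower past 2-fold. Read against 0, 2 of 38 lists then had a median above 0, against 28 as deposited. Of 379 list medians relative to all genes under 10 alternatives, 10 moved by over 0.1. With a floor of 10 FPKM the Tbx5 and fin field list stood at 0.27, cardiac at -0.36, segmentation at -0.14, pronephros at -0.26, pigment at -0.14, retinoic acid at 0.0040, Bmp at -0.071 and Tbx family at -0.11. With only genes over 2 Mb from a chromosome end, an alternative chosen after seeing the data, pronephros stood at 0.20 and glycolysis at 0.016. r with the preliminary experiment was -0.27 with the floor of 10 FPKM, and r with 21 hpf was -0.42 with loci of any length. Leaving out a library was not possible with pooled values. No paired analysis was possible because each group has 1 pooled value.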
